A study of Homo sapiens with 6 samples.

Results

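The E2F and RB family was described in 10 genes: the activator transcription factors E2F1, E2F2 and E2F3, the canonical repressors E2F4 and E2F5, the atypical repressors E2F7 and E2F8, and the pocket proteins RB1, RBL1 (p107) and RBL2 (p130). Members were the rows whose symbol equalled one of these names. Each symbol stood on 1 row of the 78304 in the table, and all 10 were among the 14275 genes tested, those whose mean over the libraries reached 1 TPM. In cycling cells, activator E2Fs bound to a DP partner switch on genes of DNA replication. Pocket proteins hold E2Fs inactive or turn them into repressors until cyclin-dependent kinases phosphorylate them. E2F4 and E2F5 work mainly with RBL1 and RBL2, in quiescent cells as the DREAM complex, whereas E2F7 and E2F8 repress E2F targets without a DP partner or a pocket protein. Loss of RB control is common in liver cancer, and the E2F genes are themselves among the targets of E2F.

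Poly(A) RNA was sequenced from Huh7, an established human hepatocellular carcinoma line labelled as wild type. Cells were plated for 24 h and then kept for 24 h with the vehicle DMSO (3 libraries) or with 16'-DEC (3 libraries), a compound known here only by that code and whose dose the labels do not give. The study set out to learn which transcripts in these liver cancer cells differ after the compound. Values are TPM (read abundance divided by gene length and scaled to the same sum in every library). They carry no absolute depth, and no counting interval can be given. Comparisons between genes rest on the gene lengths used, which are not given. Nothing in the labels says whether the replicates came from different cultures, and the p-values therefore cover no more than the spread among the 6 libraries. Between 14936 and 15118 genes reached 1 TPM in the DMSO libraries and between 13131 and 13459 in the 16'-DEC libraries. The 8 hepatocyte and hepatoma markers were all present, with a summed level of 13600 to 14167 TPM in DMSO and 12020 to 12447 TPM with 16'-DEC. Summed fibroblast markers stayed at or below 2.54 TPM and endothelial markers at or below 0.722 TPM in every library. The 4 leukocyte markers summed to 20.7 to 22.5 TPM in DMSO and to 42 to 50.8 TPM with 16'-DEC, most of it CD68, with CD3E at 0 in all 6 libraries; their part in the results was not tested. Fewer cells in a cell cycle phase and less RNA per cell cannot be told apart in such bulk samples.

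Promoter sequences show which members carry the binding motif of their own family close to their start. The RefSeq promoter table (GRCh38.p14, 250 bases before to 50 after each start) held 8 of the 10 members; E2F5 and E2F8 were not matched. The motifs TTTCCCGC, TTTCGCGC, TTTGGCGC and TTTGCCGC were searched on both strands. At least 1 was present in the windows of E2F1, E2F2, E2F3 and RBL1, that is in 4 of 8 members (50%), against 1090 of 27305 genes with a promoter of 300 bases (3.99%). The 100 bases before the start are given for these 4 genes, and for E2F4 and E2F7, whose windows held none of the motifs, in the direction of transcription with matches in capitals. They lie at chr20:33686386-33686485 (minus strand), chr1:23531234-23531333 (minus strand), chr6:20401779-20401878 (plus strand), chr20:37095998-37096097 (minus strand), chr16:67192055-67192154 (plus strand) and chr12:77065570-77065669 (minus strand).
E2F1: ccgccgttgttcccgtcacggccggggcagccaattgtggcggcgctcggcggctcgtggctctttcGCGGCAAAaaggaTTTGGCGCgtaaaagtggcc
E2F2: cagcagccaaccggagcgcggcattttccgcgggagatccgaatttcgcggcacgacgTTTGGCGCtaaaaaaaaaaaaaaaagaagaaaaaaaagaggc
E2F3: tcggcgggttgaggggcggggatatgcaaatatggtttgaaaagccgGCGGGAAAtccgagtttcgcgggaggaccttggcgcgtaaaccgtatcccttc
RBL1: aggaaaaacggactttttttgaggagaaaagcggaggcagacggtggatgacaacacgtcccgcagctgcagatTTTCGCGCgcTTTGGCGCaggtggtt
E2F4: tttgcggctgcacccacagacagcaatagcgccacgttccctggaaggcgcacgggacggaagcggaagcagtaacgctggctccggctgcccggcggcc
E2F7: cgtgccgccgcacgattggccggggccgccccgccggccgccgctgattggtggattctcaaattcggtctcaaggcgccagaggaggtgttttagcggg

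In E2F1 the matches began 33 and 20 bases before the start, the first on the minus strand, and in RBL1 they began 26 and 16 bases before it. E2F2 held 1 match at 42 bases and E2F3 1 match at 53 bases before the start, the latter on the minus strand; the table lists another E2F3 start further into the gene, and its window held none. The CHR motif (TTTGAA or TTCGAA, either strand), through which DREAM acts on genes of mitosis, was found in the windows of E2F3 and RBL2, 2 of 8 members (25%) against 19.5% of all genes. The window listed for RB1 lies inside the gene, not at its annotated 5′ end, so it says nothing about the main RB1 promoter. RB1 is still counted among the 8 members in both shares. A match is a stretch of letters and was not measured as a bound site here.

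All 10 members were lower with 16'-DEC. In each of them the highest 16'-DEC library lay below the lowest DMSO library, and each passed limma's test on log2(TPM + 1) at an adjusted p under 0.05 (Benjamini-Hochberg over all tested genes). The fall ran from 1.15-fold for E2F4 to 6.09-fold for E2F7 in mean TPM. These counts stand against a wide background: 48.9% of all tested genes were called lower and 22.7% higher, and 51% were lower with no overlap between the groups. The median change of all tested genes was -0.31 on the log2(TPM + 1) scale. All changes in log2 units here are 16'-DEC minus DMSO on that scale, which understates the change of genes at low levels.

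**Figure D1:**
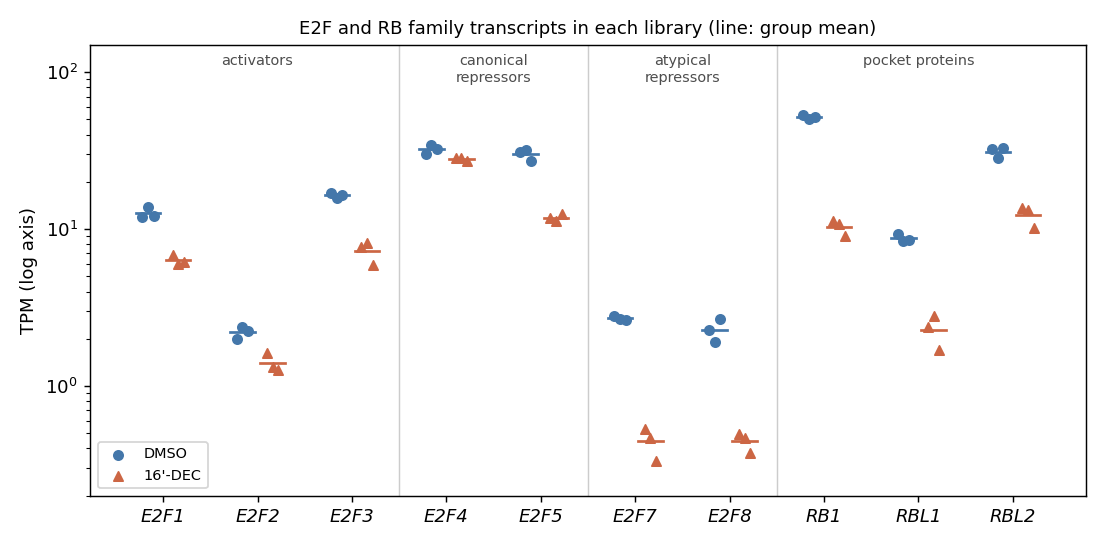
TPM (log axis) of the 10 members in each library, DMSO as circles and 16'-DEC as triangles, with a line at each group mean of 3 libraries. The groups do not overlap for any member, and the group means are closest for E2F4 and furthest apart in proportion for E2F7.

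Among the activators, E2F3 had the highest mean TPM in both groups, although its libraries overlapped those of E2F1 with 16'-DEC. In the values as deposited, E2F1 and E2F3 fell about as far as one another while E2F2 changed less. After the adjustment for GC content and length described further on, E2F1 was at -1.19, E2F2 at -0.50 and E2F3 at -0.49. E2F1 (ENSG00000101412, chromosome 20, 33675683 to 33686404; GRCh38, GENCODE 29, as for all gene positions), which drives S phase genes and can also induce apoptosis, was at 11.9, 13.8 and 12.1 TPM in the DMSO libraries and at 6.85, 6.03 and 6.15 TPM with 16'-DEC. Every treated library was lower than every control, and the mean went from 12.6 ± 1.03 to 6.34 ± 0.442 TPM (SD, n = 3 per group, as for all means). The change was -0.89 ± 0.0977 (SE; adjusted p = 4.27e-05, limma). E2F2 (ENSG00000007968, chromosome 1, 23506430 to 23531220), an activator usually low outside proliferating tissue, was at 2.0, 2.38 and 2.23 TPM in DMSO and at 1.63, 1.32 and 1.26 TPM with 16'-DEC. The highest treated library lay not far below the lowest control, and the change was -0.41 ± 0.127 (adjusted p = 0.0167, limma). E2F3 (ENSG00000112242, chromosome 6, 20401906 to 20493715), needed for entry into S phase, was at 17.0, 15.8 and 16.5 TPM in DMSO and at 7.74, 8.21 and 5.87 TPM with 16'-DEC. The third treated library was the lowest of the 6, as it was for every other member except E2F1 and E2F5. The change of E2F3 was -1.09 ± 0.12 (adjusted p = 4.47e-05, limma). Without 16'-DEC replicate 2, E2F2 no longer passed (-0.39, adjusted p = 0.0543, limma; 0.0207 to 0.0466 without any other single library).

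The canonical repressors parted in the values as deposited, with E2F4 at 86.8% and E2F5 at 39.4% of the control level. They did not after the adjustment for GC content and length described further on (-0.48 and -0.60). E2F4 (ENSG00000205250, chromosome 16, 67192169 to 67198918), the E2F most often bound to pocket proteins in resting cells, was at 30.3, 34.2 and 32.4 TPM in DMSO and at 28.6, 28.3 and 27.1 TPM with 16'-DEC. The treated libraries lay just under the lowest control, and the mean went from 32.3 ± 1.97 to 28 ± 0.818 TPM. The change of -0.20 ± 0.079 was at the threshold (adjusted p = 0.04998, limma), above the median of all tested genes, and it was lost in 5 of the 6 fits that left out 1 library (adjusted p from 0.0814 to 0.154, limma). E2F5 (ENSG00000133740, chromosome 8, 85177225 to 85217158), the other E2F of the DREAM complex, was at 30.8, 32.1 and 27.1 TPM in DMSO and at 11.7, 11.3 and 12.5 TPM with 16'-DEC. In the control libraries it was level with E2F4, and in the treated libraries it was well below it: the ratio of E2F5 to E2F4 was 1.02, 0.939 and 0.838 in DMSO and 0.408, 0.399 and 0.46 with 16'-DEC. Its change was -1.27 ± 0.0915 (adjusted p = 2.96e-06, limma). Exons of E2F5 overlap C8orf59 and AC011773.1 on the opposite strand, and since no strand marking is described, reads there cannot be assigned to one gene.

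The atypical repressors were, with E2F2, the least abundant members, and their mean TPM fell the furthest in proportion in the values as deposited. E2F7 (ENSG00000165891, chromosome 12, 77021247 to 77065580), which represses E2F1 and other E2F targets late in S phase, was at 2.81, 2.69 and 2.62 TPM in DMSO and at 0.532, 0.467 and 0.333 TPM with 16'-DEC. Its control libraries were close together (2.7 ± 0.0955 TPM), and the treated mean was 6.09-fold lower, with a change of -1.36 ± 0.128 (adjusted p = 1.57e-05, limma). E2F8 (ENSG00000129173, chromosome 11, 19224063 to 19241620), its close partner, with which it has been studied in liver polyploidy, was at 2.27, 1.92 and 2.67 TPM in DMSO and at 0.496, 0.464 and 0.372 TPM with 16'-DEC. Its mean was 5.16-fold lower, with a change of -1.18 ± 0.141 (adjusted p = 7.13e-05, limma). Both genes were under 1 TPM in every treated library, where a pseudocount of 1 compresses the change; with a pseudocount of 0.1 the changes were -2.38 and -2.13. E2F8 overlaps AC009652.2, an antisense transcript.

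All 3 pocket proteins fell, RB1 the most. RB1 (ENSG00000139687, chromosome 13, 48303726 to 48599436), the retinoblastoma tumour suppressor that restrains the activator E2Fs, was at 53.6, 50.1 and 51.8 TPM in DMSO and at 11.3, 10.8 and 9.07 TPM with 16'-DEC. It was the most abundant member in each control library and the fourth in the treated means, 4.99-fold lower, with a change of -2.22 ± 0.095 (adjusted p = 2.12e-07, limma). RBL1 (ENSG00000080839, chromosome 20, 36996349 to 37095995), the pocket protein of cycling cells and itself a known E2F target, was at 9.25, 8.41 and 8.58 TPM in DMSO and at 2.37, 2.78 and 1.7 TPM with 16'-DEC. The treated mean was 3.83-fold lower (-1.58 ± 0.137, adjusted p = 9.24e-06, limma). RBL2 (ENSG00000103479, chromosome 16, 53433977 to 53491649), the pocket protein of quiescent cells, was at 32.5, 28.4 and 32.8 TPM in DMSO and at 13.6, 13.3 and 10.1 TPM with 16'-DEC. Its mean was 2.53-fold lower (-1.28 ± 0.122, adjusted p = 1.69e-05, limma). RBL1 overlaps the antisense transcript AL136172.1, and RBL2 overlaps the coding gene AKTIP and the transcript AC007342.6, all on the opposite strand.

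In DMSO the order of mean TPM was RB1, E2F4, RBL2, E2F5, E2F3, E2F1, RBL1, E2F7, E2F8 and E2F2. The libraries of E2F4 and RBL2, of RBL2 and E2F5, of E2F7 and E2F8, and of E2F8 and E2F2 overlapped, so those neighbours could not be ordered. With 16'-DEC the order was E2F4, RBL2, E2F5, RB1, E2F3, E2F1, RBL1, E2F2, and E2F7 level with E2F8 at 0.444 TPM each. Here RBL2 overlapped E2F5 and E2F3 overlapped E2F1. RB1 thus went from the first place to the fourth, and E2F2, which could not be told from E2F8 in DMSO, stood above both atypical repressors.

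Activators were then set against repressors within each library, where the scaling of the library cancels in a ratio of summed TPM. The summed TPM of E2F1, E2F2 and E2F3 divided by that of E2F4, E2F5, E2F7 and E2F8 was 0.468, 0.451 and 0.475 in DMSO and 0.392, 0.383 and 0.33 with 16'-DEC. The ratio was lower in every treated library (0.464 ± 0.0125 against 0.368 ± 0.0338, a log2 change of -0.34). The summed activators went from 31.2 ± 0.647 to 15.0 ± 1.54 TPM and the canonical repressors from 62.3 ± 3.58 to 39.8 ± 0.423 TPM. Against the canonical pair alone, the ratio went from 0.502 ± 0.018 to 0.377 ± 0.0359. Against the atypical pair it moved the other way, at 6.1, 6.93 and 5.81 in DMSO and 15.8, 16.7 and 18.8 with 16'-DEC. The sum gives most weight to E2F4. With equal weight for every gene, as a difference of mean log2(TPM + 1), the activators gained 0.21 on the repressors. That is the opposite direction to the ratio of sums. Unlike that ratio, this scale compresses the change of genes at low levels such as E2F7 and E2F8. Nor does the library scaling fully cancel on it, with a gain of 0.24 under the median-of-ratios scaling described further on. Both the gain on the atypical pair and the equal-weight value changed with the adjustment for GC content and length, whose parts were not separated. After GC adjustment the equal-weight difference was -0.16, the ratio of sums to the canonical pair changed by -0.33, and the ratio to the atypical pair changed by 0.20 with groups that overlapped, against 1.45 as deposited. With equal weight, the activators were at -0.13 relative to the atypical pair after the adjustment, again with overlap, against 0.48 before it. The ratio of E2F1 to E2F3 overlapped between the groups, at 0.701 to 0.872 in DMSO and 0.734 to 1.05 with 16'-DEC.

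**Figure D2:**
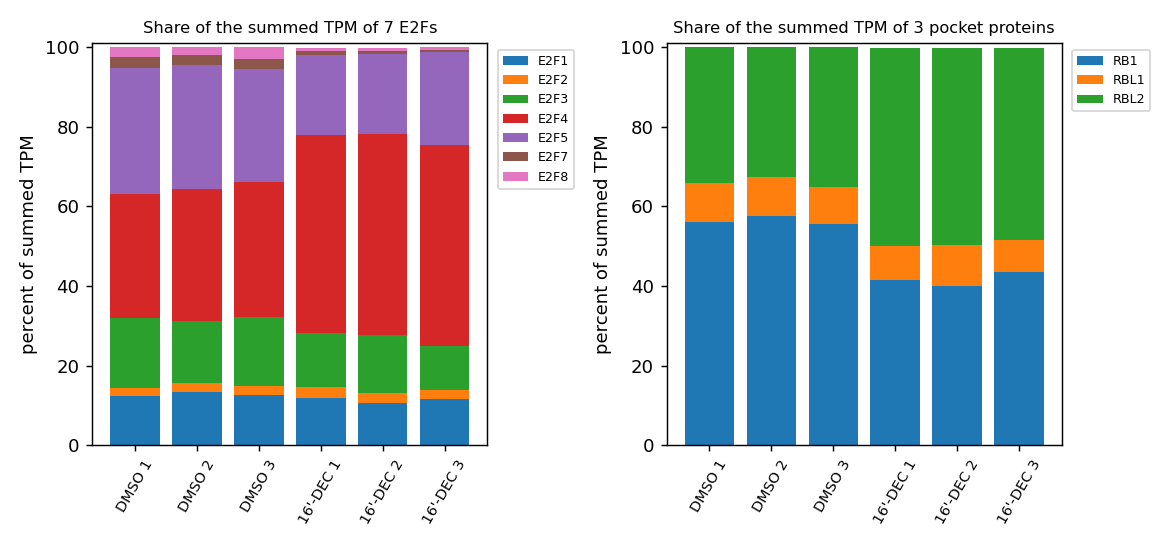
Share of each of the 7 E2Fs in their summed TPM as deposited (left) and of each pocket protein in theirs (right), in percent, 1 bar per library. E2F4 goes from 32.8% to 50.3% of the E2F sum, and RB1 from 56.5% to 41.7% of the pocket protein sum while RBL2 goes from 34% to 49.2%.

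In the values as deposited, E2F4 made up 32.8% ± 1.41 of the TPM of the 7 E2Fs in DMSO and 50.3% ± 0.472 with 16'-DEC. The share of E2F5 went from 30.4% ± 1.78 to 21.2% ± 1.76 and that of E2F3 from 16.7% ± 1.18 to 13% ± 1.87. E2F1 went from 12.8% ± 0.561 to 11.4% ± 0.587, and E2F2 stood at 2.23% ± 0.153 and 2.52% ± 0.279. E2F7 and E2F8 each went from over 2% on average (2.75% and 2.34%) to 0.793% and 0.794%. Shares were not computed after GC adjustment, where E2F4 (-0.48) was level with E2F2 (-0.50), E2F3 (-0.49) and E2F7 (-0.48). E2F5, E2F8 and E2F1 fell further there, at -0.60, -0.70 and -1.19. Of the pocket protein TPM, RB1 held 56.5% ± 1.04 in DMSO and 41.7% ± 1.7 with 16'-DEC, RBL2 34% ± 1.25 and 49.2% ± 0.784, and RBL1 9.53% ± 0.278 and 9.06% ± 1.14, the only one of the 3 whose groups overlapped. In the values as deposited the summed pocket proteins fell more than the summed E2Fs: the ratio of the former to the latter was 0.982, 0.845 and 0.975 in DMSO and 0.473, 0.479 and 0.389 with 16'-DEC. RB1 alone was at 0.527 ± 0.0353 of the E2F sum in DMSO and at 0.186 ± 0.0144 with 16'-DEC. After GC adjustment the log2 change of the ratio of pocket proteins to E2Fs was 0.0843 with groups that overlapped, against -1.07 as deposited. With equal weight for every gene, as a difference of mean log2(TPM + 1), it was 0.15 against -0.78 as deposited, with groups apart in both. These ratios and differences describe transcripts, and neither protein nor phosphorylation was measured.

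The size of the change followed the base composition of the transcripts. RB1 has the lowest GC content of the members (37.3%) and E2F1 the highest (62.5%). Across the 10 members, Spearman's rho between GC content and log2 change was 0.95, as a description of genes that share the same 6 libraries. The same trend ran through the whole table: tested genes under 40% GC had a median change of -1.46, those from 40 to 45% of -0.86, from 45 to 50% of -0.33, from 55 to 60% of 0.22 and from 60% of 0.27. Every member lay below the median of its own range, RB1 at -2.22, RBL1, RBL2, E2F5 and E2F7 at -1.58 to -1.27, E2F3 and E2F8 at -1.09 and -1.18, E2F2 and E2F4 at -0.41 and -0.20, and E2F1 at -0.89.

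**Figure D3:**
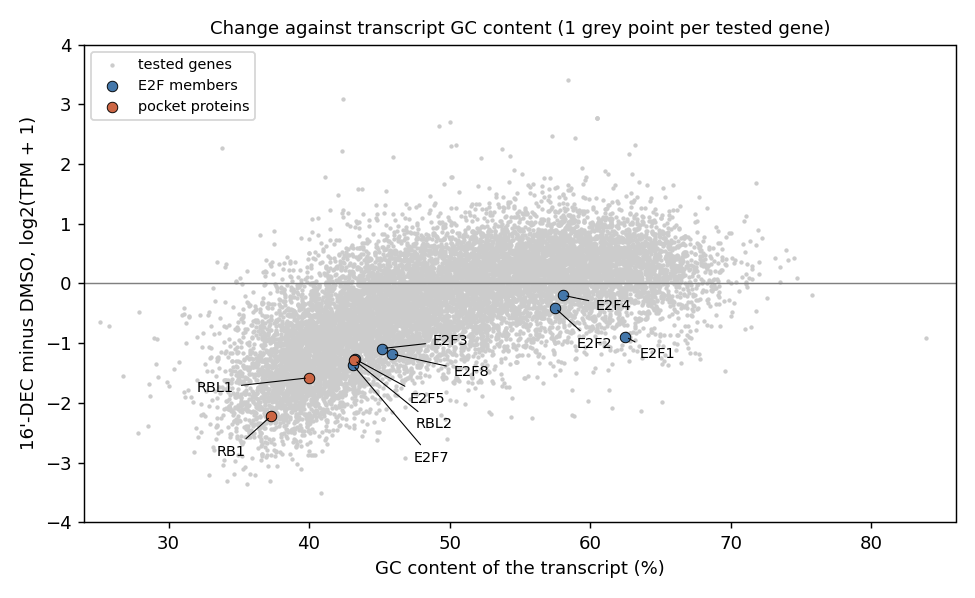
Change on the log2(TPM + 1) scale (vertical axis) against GC content of the transcript in percent (horizontal axis), with a grey point for each tested gene and larger points for the E2Fs and pocket proteins. RB1 at 37.3% GC changed by -2.22 and E2F1 at 62.5% GC by -0.89, and both lie under the cloud's centre at their GC content.

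A fit that removed a smooth trend on GC content and length from each library left all 10 members lower and passing, against 31.7% of 13291 genes called lower and 34.5% called higher. It changed their order. E2F1 then had the largest change (-1.19, adjusted p = 7.24e-06, limma), followed by RB1 (-0.71) and E2F8 (-0.70), while RBL1 had the smallest (-0.31, adjusted p = 0.0127, limma). E2F5 was at -0.60, E2F2 at -0.50, E2F3 at -0.49, E2F4 and E2F7 at -0.48 and RBL2 at -0.41, and rho with GC content was -0.37. The adjustment also re-centred each library, with a median of 0.02 over all genes. It is called GC adjustment throughout, although the parts of GC content and of length in it were not separated. Whether the trend is technical or belongs to the treatment was not tested.

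Other scalings moved E2F2 and E2F4 but not the direction of the rest. With median-of-ratios scaling (median of all genes -0.01), 8 of 10 members were lower and none higher, against 37.7% of all genes lower and 37.1% higher. E2F2 was then at -0.19 (adjusted p = 0.171, limma) and E2F4 at 0.14 (adjusted p = 0.0926, limma). With quantile normalization (median 0.11), the same 8 were lower and none higher, against 33.3% and 42%, with E2F2 at 0.09 and E2F4 at 0.15. The other 8 ranged from -1.89 for RB1 to -0.57 for E2F1 under the first and from -1.85 for RB1 to -0.40 for E2F1 under the second.

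**Figure D4:**
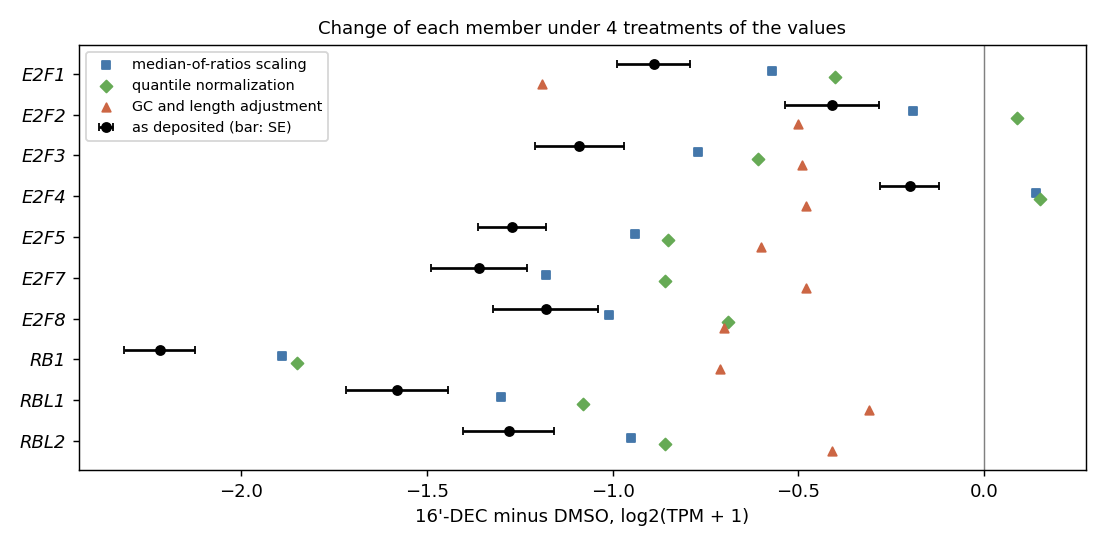
Change of each member on the log2(TPM + 1) scale as deposited (circle, bar: SE), after median-of-ratios scaling (square), quantile normalization (diamond) and adjustment for GC content and length (triangle). E2F4 crosses 0 under both scalings (0.14 and 0.15) and E2F2 under quantile normalization (0.09), and RB1 moves from -2.22 to -0.71 under the GC adjustment.

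The genes whose levels followed E2F1 and RB1 most closely were sought among 10191 genes with a symbol and a mean of at least 5 TPM, by Pearson's r of log2(TPM + 1) over the 6 libraries. For E2F1 they were SERPINA11 (0.9989), IGDCC3 (0.9988) and ARMC10 (0.9983). For RB1 they were SMARCAD1, SP3 and RBAK (0.9999 each). SMARCAD1, a chromatin remodeller, went from 42.5 ± 2.01 to 7.0 ± 1.02 TPM, and SP3, a GC-box transcription factor, from 113 ± 4.39 to 20.6 ± 2.19 TPM. With 2 groups that do not overlap, such values mostly restate the difference between the groups.

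The partners and regulators of the family were followed in lists of known genes. Counts as deposited are to be read against the 48.9% lower and 22.7% higher of all tested genes. Counts after GC adjustment stand against 31.7% lower and 34.5% higher. With median-of-ratios scaling the shares were 37.7% and 37.1%, and with quantile normalization 33.3% and 42%. Both DP partners fell: TFDP1, which pairs with the E2Fs to bind DNA, from 109 ± 1.61 to 53.6 ± 2.97 TPM (-1.01), and TFDP2 by 0.83, although TFDP2 stood at -0.00 after GC adjustment. Of the 8 genes of the MuvB core, its RBBP4 subunit, the MYB genes and FOXM1, which form DREAM with the pocket proteins or activate genes of mitosis, 7 were lower and 1 higher (median -0.58); 5 were lower and 3 higher after GC adjustment, and 4 and 1 under either scaling. LIN9, a MuvB scaffold subunit, went from 10.4 ± 0.245 to 1.17 ± 0.043 TPM (-2.39 ± 0.0969, adjusted p = 1.77e-07, limma), and MYBL1, a MYB factor, fell by 1.83. After GC adjustment LIN9 was at -1.31 and MYBL1, under 1 TPM in every treated library, at -0.33. LIN37, the subunit needed for DREAM repression, rose from 8.26 ± 1.47 to 15.1 ± 0.479 TPM (0.81). Of the 9 genes of E2F6 and its polycomb complex, which repress E2F sites without a pocket protein, 5 fell and 2 rose, but 4 were lower and 4 higher after GC adjustment. CBX3, a heterochromatin protein, went from 246 ± 11.8 to 61.3 ± 1.24 TPM, PCGF6, the subunit that defines this complex, fell by 1.47, and RING1, a ubiquitin ligase subunit, rose by 0.50. After GC adjustment CBX3, PCGF6 and RING1 were at -0.86, -0.62 and 0.17. E2F6, the E2F outside the 10 members and chosen after its values were seen, was at 68.2 ± 2.72 TPM in DMSO and 59.5 ± 6.36 TPM with 16'-DEC and did not pass (-0.20, adjusted p = 0.0757, limma); after GC adjustment it was at 0.45 and higher. MAX, the other member of that list that did not pass, was at 0.12.

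Upstream of the pocket proteins, 7 of 9 cyclins and CDKs fell and 1 rose (median -0.73; 6 and 1 after GC adjustment). CCNE2, a cyclin E that drives CDK2, went from 6.43 ± 0.751 to 0.48 ± 0.0529 TPM (-2.32), and CCNA2, the cyclin of S phase, from 50.4 ± 0.751 to 16.7 ± 1.07 TPM (-1.54). After GC adjustment CCNE2 was at -0.85 and CCNA2 at -0.65. CDK4, the kinase that begins RB1 phosphorylation with cyclin D, was the gene that rose, from 100 ± 12.8 to 166 ± 8.0 TPM (0.73). CDK6, another kinase of the list, added after its values were seen, fell from 37.9 ± 5.09 to 5.74 ± 1.53 TPM (-2.54, or -1.19 after GC adjustment). CCND3, named after its values were seen, as are all list genes given as not passing or not tested, was at 0.14 and did not pass. Of the CDK inhibitors, 3 of the 6 tested rose and 3 fell (2 and 2 after GC adjustment). CDKN1A (p21) rose from 65.4 ± 5.62 to 106 ± 2.49 TPM (0.69), CDKN1B (p27) fell from 67.4 ± 3.51 to 33.2 ± 2.08 TPM, and CDKN2C (p18) fell by 0.73; CDKN1C was under the level tested. Of the 3 catalytic subunits of PP1, the phosphatase that removes phosphate from RB1, PPP1CB and PPP1CC fell by 1.84 and 0.89 and PPP1CA rose from 107 ± 9.64 to 202 ± 6.78 TPM (0.91). After GC adjustment PPP1CB was at -0.22 and PPP1CC, now higher, at 0.19.

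Of the 13 corepressors that pocket proteins recruit, 7 fell, 1 rose and 5 did not pass; after GC adjustment 6 were lower and 3 higher. HDAC2, a histone deacetylase, went from 197 ± 12.6 to 59.1 ± 1.95 TPM (-1.72, or -0.24 after GC adjustment). ARID4A, an RB-binding protein, fell by 2.25 and HDAC1 rose by 0.35, and after GC adjustment they were at -0.74 and 0.42. HDAC3, SIN3A, KDM5A, SUV39H1 and SMARCA4 were between -0.27 and 0.13; after GC adjustment SIN3A and KDM5A were called higher (0.17 and 0.68). Of the 6 components of the ubiquitin ligases that act on the pathway, SKP2, which marks p27 for destruction, went from 26.2 ± 1.43 to 6.69 ± 0.746 TPM (-1.82) and CUL1, its cullin, fell by 1.06. After GC adjustment SKP2 was at -0.75 and CUL1 at -0.45. FZR1, the APC/C activator of G1, rose from 8.39 ± 1.26 to 15.8 ± 3.45 TPM (0.82). CKS1B, CCNF and SKP1 did not pass, at 0.20, -0.14 and -0.05. After GC adjustment 3 of the 6 were higher and 3 lower, with CKS1B at 0.70 and SKP1 at 1.08 among the higher and CCNF at -0.25 among the lower.

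Of 33 G1/S genes that E2F is known to switch on, 29 fell, none rose and 4 missed the threshold; their median was -0.86 against -0.31 for all tested genes. HELLS, a chromatin remodeller, went from 32.0 ± 1.79 to 3.54 ± 0.285 TPM (-2.86), and UHRF1, which brings DNMT1 to replicated DNA, from 24.9 ± 0.844 to 6.5 ± 0.567 TPM (-1.79). Among those that missed it, CDT1 was at -0.15, TK1 at -0.06 and CHAF1B at -0.27, and the GC adjustment made CDT1 and TK1 lower calls (-0.34 and -0.40). After GC adjustment 26 were lower and 1 higher, with a median of -0.59, and HELLS and UHRF1 stood at -1.55 and -1.98. With median-of-ratios scaling 23 were lower and 1 higher, and with quantile normalization 22 and 4. Of 24 G2/M genes that DREAM represses in resting cells, 20 fell, 1 rose and 3 missed the threshold; the median was -1.66, or -0.94 after GC adjustment (21 lower, 1 higher). CDK1, the kinase of mitotic entry, was at 9.41% of its control level (-3.36), CENPF, a kinetochore protein, at 6.76% (-3.51), and TOP2A, topoisomerase II alpha, at 11.9% (-3.02). After GC adjustment CDK1, CENPF and TOP2A were at -1.92, -2.30 and -1.66. CDC20, an APC/C activator of mitosis, was the gene that rose (0.28), and the GC adjustment brought it to -0.00. CCNB1, PLK1 and BIRC5 did not pass, at -0.13, 0.02 and 0.01, whereas after GC adjustment CCNB1 was called higher (0.57) and PLK1 lower (-0.24). Of the 8 apoptotic genes that E2F1 can induce, TP73 and HRK were under the level tested, 4 fell, 1 rose and 1 did not pass. PMAIP1 (NOXA) went from 13.6 ± 0.261 to 2.51 ± 0.484 TPM (-2.07, or -0.74 after GC adjustment), and BBC3 (PUMA) rose by 0.32. After GC adjustment 3 of the 6 tested were lower and 1 higher, and BBC3 did not pass (0.16, adjusted p = 0.0529, limma). BBC3 also missed the threshold without DMSO replicate 1, DMSO replicate 3 or 16'-DEC replicate 1 (adjusted p = 0.055, 0.0531 and 0.0539, limma).

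**Figure D5:**
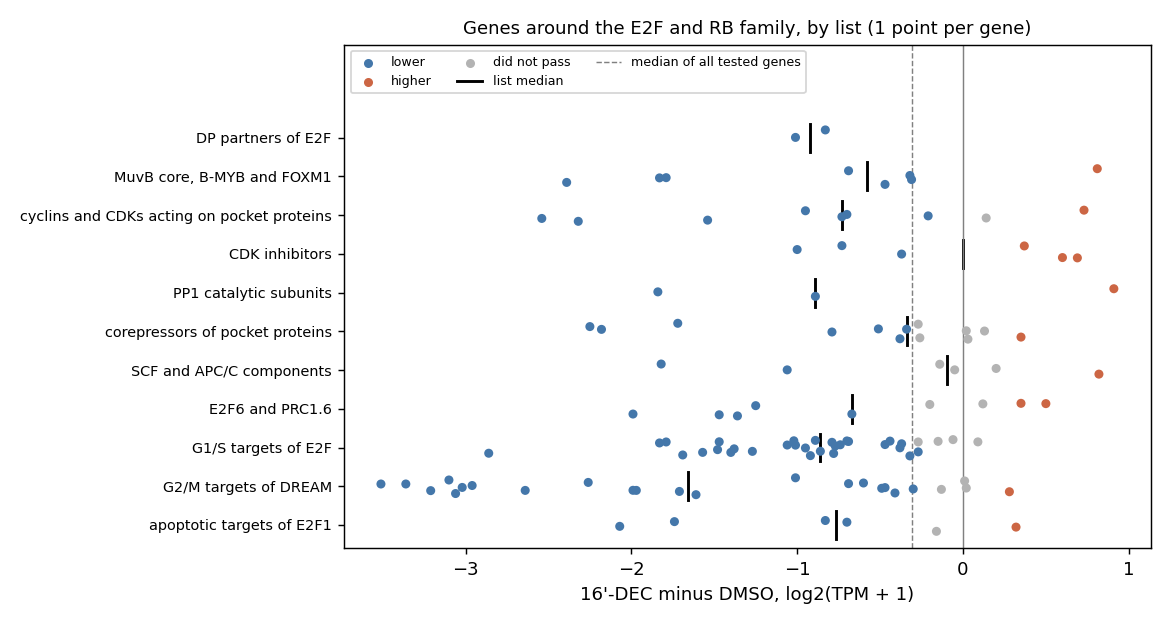
Change of each gene in the lists around the family on the log2(TPM + 1) scale, 1 point per gene, with black bars at list medians and a dashed line at the median of all tested genes (-0.31). The G2/M list reaches furthest to the left (median -1.66), and the CDK inhibitors divide evenly around 0.

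Against all genes with a promoter (3.99% and 19.5%), the E2F motif was far more frequent in the G1/S list and the CHR motif in the G2/M list. These lists hold known targets of E2F and of DREAM, so this difference was built into their choice. The E2F motif was present in 19 of 28 G1/S genes with a promoter (67.9%) and in 2 of 20 G2/M genes (10%), whereas the CHR motif was present in 3 of 28 (10.7%) and 16 of 20 (80%). Of 681 tested genes with the E2F motif 52.6% were called lower, with a median of -0.33, and of 9330 without it 48.2%, with a median of -0.26. After GC adjustment the medians were -0.03 and 0.04. Of 1553 tested genes with the CHR motif 58% were called lower, with a median of -0.50, and of 8458 without it 46.7%, with a median of -0.22; the medians were -0.03 and 0.05 after GC adjustment. As deposited, the 4 members with the E2F motif, printed above, changed by -0.89 (E2F1), -0.41 (E2F2), -1.09 (E2F3) and -1.58 (RBL1). After GC adjustment they were at -1.19, -0.50, -0.49 and -0.31. E2F4 and E2F7, printed without it, were as deposited the member that moved least and one of those that moved most. Both were at -0.48 after GC adjustment.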

How the data were processed

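The authors deposited 1 table of TPM values per gene, with every library summing to 1000000. Per the submitters' processing notes, the tools were HISAT2 2.0.1, cutadapt 1.9.1, DESeq2 and HTSeq 0.6.1 with GRCh38 as build; which annotation and which gene lengths entered the TPM is not given in the sources used here. Per the labels' protocols, libraries were poly(A)-selected with no strand marking described. TPM are relative, so abundant genes that change move the values of the rest.

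Samples were grouped by title. Genes whose mean reached 1 TPM entered a limma fit (version 3.58.1, R 4.3.3) on log2(TPM + 1), using eBayes with trend, 2-sided p-values and Benjamini-Hochberg adjustment over 14275 genes at 0.05. The fit was tested on simulated data. GC content and length came from GENCODE 29 transcripts (93.1% of tested genes, all members), removed per library by natural splines of 5 degrees of freedom each. No 2 libraries shared over 0.0692% identical values. Named genes were all members, per list up to 2 genes of smallest adjusted p in the main direction (3 for the G1/S and G2/M lists) and 1 in the other, and the 3 genes most like E2F1 and RB1; some of these genes are not reported here. Members and lists were chosen with earlier results of these data known. Figures used matplotlib 3.10.9 and tables pandas 2.3.3 in Python 3.11.15.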

Additional observations from a re-analysis of the deposited data

How the results depend on the processing

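E2F1, E2F3, E2F5, RB1, RBL1 and RBL2 stayed lower and past the threshold under all 16 alternatives, and E2F7 and E2F8 under all 15 in which they were tested. E2F2 was at -0.19 under median-of-ratios scaling, at 0.089 under quantile normalization and at -0.48 to -0.37 without 1 library. E2F4 did not pass at -0.20 with a pseudocount of 0.1, no filter, a minimum of 5 TPM, no mean trend or the replicate block, turned to 0.14 and 0.15 with median-of-ratios scaling and quantile normalization, and ran from -0.24 to -0.16 without 1 library. With a minimum of 5 TPM, where 7 members were tested, 6 were lower. The ratio of activators to repressors changed by -0.20 with quantile normalization and by 0.21 as a difference of mean log2(TPM + 1). In comparisons added after seeing the data, GC adjustment turned that difference to -0.16, that against the atypical pair to -0.13, and the pocket proteins relative to the E2Fs to 0.15 (means of log2) and 0.0843 (sums); quantile normalization turned the difference against the canonical pair, -0.062 as deposited, to 0.0407.

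Over all genes, 5290 and 5990 were higher with median-of-ratios scaling and quantile normalization, and 4213 were lower after GC adjustment (3982 with the replicate block added, chosen after seeing the data). After GC adjustment, without and with the block, 1 DP gene, 1 PP1 subunit and 5 and 4 MuvB and MYB genes were lower, and 3 MuvB and MYB genes, 2 PP1 subunits, 3 ligase components, 1 G1/S gene and 3 and 2 corepressors were higher; 4 genes of the E2F6 list were higher without the block and 3 lower with it. With median-of-ratios scaling and quantile normalization, 4 MuvB and MYB genes were lower under each, and 2 and 3 cyclins or CDKs, 3 and 5 corepressors, 3 and 3 ligase components, 1 and 4 G1/S genes and 4 and 3 G2/M genes were higher; 4 corepressors were lower under the first and 1 CDK inhibitor under the second. A minimum of 5 TPM left 4 cyclins or CDKs lower and 2 ligase components higher, as did a pseudocount of 5 for the latter. Without 1 library, 1 to 2 ligase components, 0 to 1 G2/M genes and 0 to 1 apoptotic genes were higher. PPP1CC was at 0.19, CDC20 at -0.00418 and E2F6 at 0.45 after GC adjustment, with or without the block; E2F6 was at 0.15 and 0.0269 and ARMC10 at 0.0204 (quantile) under the scalings. The cause was not tested. Same-numbered libraries did not deviate together (r = 0.0941, -0.182 and -0.0726), so the numbers were not taken to pair them. The replicate block left 9 of 10 members lower. TPM keep no depth, which leaves the counting error of E2F2, E2F7 and E2F8 unknown.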
